A study of Danio rerio with 56 samples.

Results

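Unfertilised zebrafish eggs of mothers fed benzo[a]pyrene (BaP) were compared with eggs of control mothers, to ask whether the mothers' diet changed the RNA stored in the egg. The 8 egg libraries, 4 of BaP eggs and 4 of control eggs, were taken by their sample titles from the 24 RNA libraries of the study; its 32 bisulfite samples were not analysed here. All fish were of the 5D strain. The BaP mothers ate flakes carrying BaP at a dose of 25 µg per g of fish (1250 µg in each g of food) during 21 days, starting when sexually mature at 120 days of age. Control mothers ate flakes treated with acetone, the solvent, over the same time. The fish were held as mixed pairs in replicate tanks, and the labels do not say from which tank, female or spawning a library came, nor how many eggs it pooled. Every p-value therefore sets a difference between the groups against the spread between these libraries. That spread may not be one between independent mothers, and part of it may be technical.

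BaP is a polycyclic aromatic hydrocarbon that binds the aryl hydrocarbon receptor, which in fish and mammals switches on cytochrome P450 genes of the CYP1 family. The enzymes turn BaP into reactive products that can form adducts with DNA. A mature fish egg makes almost no RNA of its own. Its transcripts were made during oogenesis, are stored with translational repressors, and drive the first cell divisions until the embryo's own genome is switched on and much of the stored RNA is degraded.

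RNA was sequenced as read pairs from total RNA after removal of ribosomal RNA. Totals were 36958460 to 55044612 estimated counts in the BaP libraries and 36548517 to 40924407 in the control libraries. Of 57192 transcripts listed, 48420 had a count in at least 1 egg library and 28231 in all 8. The rows carry Ensembl transcript identifiers, 0 of which matched the gene tables in use, so transcripts are described by abundance, length and fate and no gene name is given. Markers of the egg, of ovarian somatic cells or of blood could for this reason not be checked. A different mix of cells cannot be told apart from a different relative level in the egg.

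None of 29023 transcripts tested was called higher or lower in BaP eggs (quasi-likelihood test of edgeR, p adjusted by Benjamini-Hochberg, threshold 0.05, 0% called). At an unadjusted p under 0.05 there were 1044 transcripts, or 3.6%. For 774 transcripts, or 2.67%, the 4 BaP libraries did not overlap the 4 control libraries, with BaP higher for 417 (1.44%) and lower for 357 (1.23%). BaP libraries were as alike to control libraries as to each other. CPM values are counts scaled to the library total after its adjustment by TMM factors. Pearson's r of log2 CPM ran from 0.894 to 0.921 in the 6 pairs of BaP libraries and from 0.896 to 0.928 in the 6 control pairs. In the 16 mixed pairs r ran from 0.889 to 0.934. These correlations are across transcripts of libraries that share the same annotation and mapping, and transcripts are not replicates.

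Transcripts were placed in 5 classes by their mean TPM (a level per transcript length, scaled to the library) over the 8 egg libraries. The class of 1000 TPM and over held 125 transcripts, that of 100 to 1000 TPM held 1340, that of 10 to 100 TPM held 10209 tested, that of 1 to 10 TPM held 11108 tested and that under 1 TPM held 6241 tested. The low-count filter kept 24.8% of the transcripts counted in the lowest class, 96.1% in the next and 99.8% to 100% in the others. The abundant transcripts were short, with a median length of 665 bases at 1000 TPM and over, against 2807 bases under 1 TPM.

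Fold changes were narrower at higher abundance. The central 80% of log2 fold changes ran from -0.80 to 0.83 under 1 TPM, from -0.51 to 0.54 at 1 to 10 TPM, from -0.22 to 0.20 at 10 to 100 TPM and from -0.21 to 0.11 at 100 to 1000 TPM. At 1000 TPM and over it was wider again, from -0.33 to 0.16. A point estimate of 2-fold or more was reached by 13.6% of transcripts under 1 TPM, by 5.79% at 1 to 10 TPM, by 12 of the 1465 transcripts of 100 TPM and over, and by 0 of the 125 in the highest class. Unadjusted p-values under 0.05 made up 3.22%, 3.83%, 3.54%, 3.66% and 6.4% of the classes from the lowest to the highest, against 3.6% of all transcripts. The 6.4% stands for 8 transcripts.

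How much change the data leave possible was read from the 95% interval of each log2 fold change. All values are scaled to the library, so these are changes relative to the other RNA of the egg. A rise or fall shared by all transcripts would not be seen. Over all transcripts, 16018 of 29023 (55.2%) had an interval that lay within a 2-fold change either way. These transcripts made up 88.04% of the TPM of an average egg library. By class the share was 9.89% under 1 TPM, 45.1% at 1 to 10 TPM, 88.6% at 10 to 100 TPM, 92.6% at 100 to 1000 TPM and 85.6% at 1000 TPM and over. The median half-width of the interval was a factor of 2.53 in the lowest class and 1.17 at 100 to 1000 TPM. For most transcripts under 1 TPM the interval thus left a 2-fold change possible. Calls used an adjusted p, so an interval within 2-fold does not mean that a 2-fold change would have been called. Within a change of 1.5-fold lay the intervals of 10084 transcripts, which carried 71.5% of the TPM. For 117 of the 1465 transcripts of 100 TPM and over the interval reached beyond 2-fold. In 110 of these 117 (94.02%) the estimated counts were not all whole, as happens when shared reads are divided between transcripts, against 75.4% of the others of that abundance. The intervals are not adjusted for their number.

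**Figure D1:**
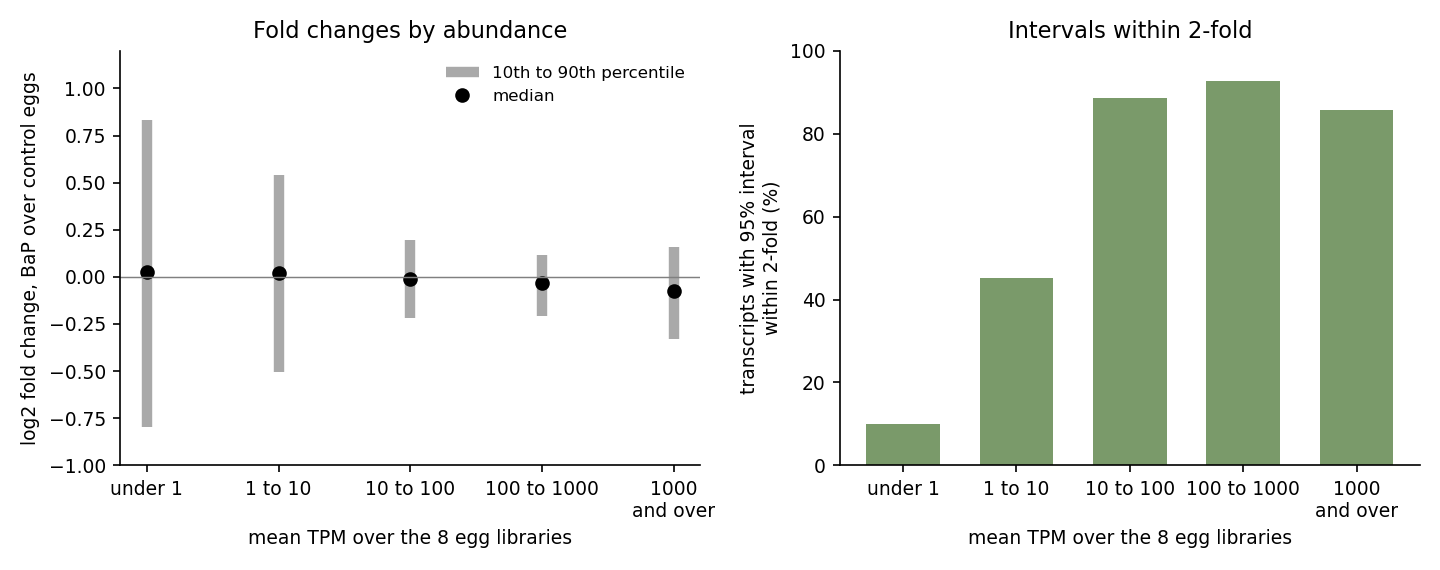
Left, log2 fold change of BaP over control eggs by class of mean TPM; dots are class medians and bars span the 10th to the 90th percentile of the tested transcripts. Right, the percentage of tested transcripts in each class whose 95% interval lay within a 2-fold change, which was 9.89% under 1 TPM and 92.6% at 100 to 1000 TPM.

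The sign of the fold changes leaned with abundance, by small amounts that single libraries could turn in the lowest class. The median log2 fold change was 0.03 under 1 TPM, 0.02 at 1 to 10 TPM, -0.01 at 10 to 100 TPM, -0.03 at 100 to 1000 TPM and -0.08 at 1000 TPM and over, against -0.00 over all transcripts. BaP eggs had the higher estimate for 52.1% of transcripts in the lowest class and for 34 of 125 (27.2%) in the highest, with 49.4% over all. Under 1 TPM the median was -0.002 without BaP replicate 1 and -0.01 without BaP replicate 3, and at 1 to 10 TPM the lowest median with 1 library left out was 0.006. The 27.2% was the same with RLE and with upper-quartile factors. In each class the groups overlapped. Set against the mean of the 8 libraries, the median of the highest class was 0.05, 0.10, -0.09 and -0.19 on the log2 scale in BaP replicates 1 to 4 and 0.09, 0.04, -0.05 and 0.11 in control replicates 1 to 4. BaP replicates 3 and 4 and control replicate 3 lay below the mean, and the other 5 libraries above it.

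The share of egg RNA in each class overlapped between the groups, and none of the differences passed a test. Transcripts of 1000 TPM and over took 26.1%, 25.6%, 27.8% and 24.1% of the TPM in BaP replicates 1 to 4, against 27.04%, 26.1%, 24.9% and 26.9% in control replicates 1 to 4. The BaP values ranged wider than the control values and enclosed them. Transcripts of 100 to 1000 TPM took 35.1% ± 1.22 in the BaP group and 35.5% ± 0.423 in the control group (SD, n = 4 each; two-sided exact permutation p = 0.629). Those of 10 to 100 TPM took 33.9% ± 1.28 in the BaP group and 33.3% ± 1.18 in the control group (SD, n = 4 each; exact permutation p = 0.514). At 1 to 10 TPM the share was 4.59% ± 0.202 in BaP libraries and 4.41% ± 0.216 in control libraries (SD, n = 4 each; exact permutation p = 0.20). Under 1 TPM it was 0.551% ± 0.0230 in BaP libraries and 0.533% ± 0.0316 in control libraries (SD, n = 4 each; exact permutation p = 0.40). The highest class had an exact permutation p of 0.686. Classes by CPM, here without TMM factors, and shares of counts were also tried in place of TPM. The differences were then larger beside the spread. Transcripts of 10 to 100 CPM then took 36.9% ± 0.597 of the reads in the BaP group and 36.1% ± 0.325 in the control group (SD, n = 4 each; exact permutation p = 0.114), and those of 100 to 1000 CPM took 49.3% ± 0.457 in the BaP group and 49.9% ± 0.233 in the control group (SD, n = 4 each; exact permutation p = 0.0857). Those of 1 to 10 CPM took 4.195% ± 0.113 in the BaP group and 4.04% ± 0.118 in the control group (SD, n = 4 each; exact permutation p = 0.143). Adjusted over the 5 CPM classes, the exact permutation p was 0.238 to 0.343. The smallest p that 4 against 4 libraries allow is 0.0286. After adjustment, a difference in a single class could therefore not have passed even with the groups fully apart. The missed threshold alone does not show equal shares.

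**Figure D2:**
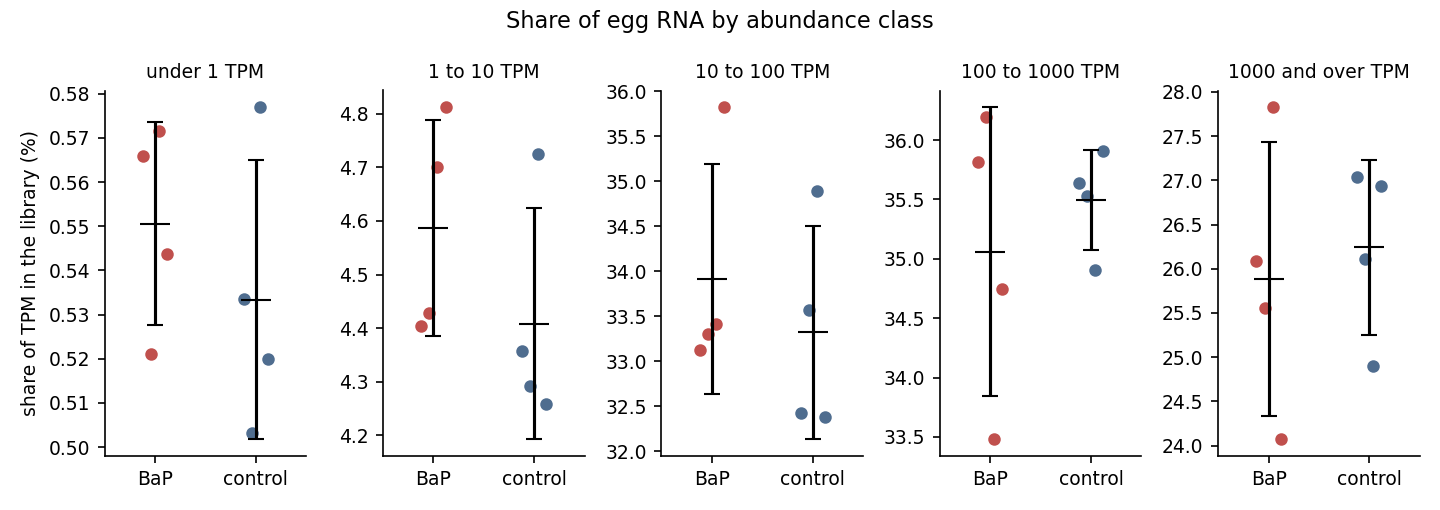
Share of TPM in each egg library taken by transcripts of 5 classes of mean TPM, in percent; points are libraries, BaP left and control right, with mean and SD (n = 4 each), and the vertical axes do not start at 0. The 2 groups overlap in all 5 classes.

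Other measures of the whole library overlapped between the groups. With each library thinned to 36548516 reads, 37591 ± 94.04 transcripts had a count in BaP libraries, against 37424 ± 206 in control libraries (SD, n = 4 each; exact permutation p = 0.20). The 100 most abundant transcripts took 23.2% ± 1.58 of the TPM in BaP libraries, against 23.5% ± 0.799 in control libraries (SD, n = 4 each; exact permutation p = 0.771). Transcripts over 5000 bases held 16.8% ± 0.548 of all reads of BaP libraries, against 16.8% ± 0.487 in control libraries (SD, n = 4 each; exact permutation p = 0.914). Whole estimated counts made up 31.4% ± 0.415 of the transcripts counted in BaP eggs and 31.3% ± 0.194 in control eggs (exact permutation p = 0.971). Adjusted over these 9 measures, the class shares included, the exact permutation p ran from 0.90 to 0.971. With this adjustment a single measure could not have passed on its own.

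Per transcript, the spread between replicate libraries was about equal in the groups below 1000 TPM. The TPM share of a whole class spread more in BaP libraries at 100 to 1000 TPM (SD 1.22 in BaP, 0.423 in control). It also did so at 1000 TPM and over (SD 1.55 in BaP, 0.991 in control). In the lower classes these SDs were closer, and under 10 TPM they were larger in control libraries. The median SD of log2 CPM over 4 libraries was 0.70 in BaP and 0.70 in control eggs under 1 TPM, and 0.43 in BaP and 0.44 in control eggs at 1 to 10 TPM. In both groups it was 0.17 at 10 to 100 TPM and 0.14 at 100 to 1000 TPM. At 1000 TPM and over it was 0.25 in BaP eggs and 0.20 in control eggs. The SD was the larger in BaP eggs for 82 of the 125 transcripts of that class (65.6%), against 49.2% of all tested. These 125 transcripts share libraries and some may share reads, so they are not 125 observations, and the difference was not tested. In a check added after seeing the data, with 1 library left out in turn, the number was 69 to 92 of 125. The median distance of a library from the mean of the other 3 of its group, in this class, was 0.26, 0.26, 0.19 and 0.22 log2 units in BaP replicates 1 to 4 and 0.18, 0.12, 0.22 and 0.20 in control replicates 1 to 4. Over all transcripts the values were 0.26 to 0.31 in BaP libraries and 0.24 to 0.31 in control libraries, and no egg library stood apart by this measure.

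**Figure D3:**
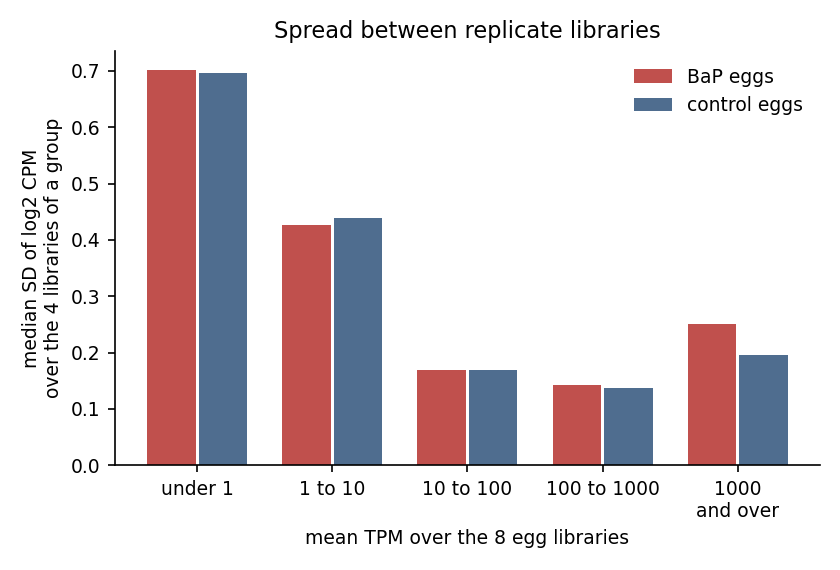
Median over transcripts of the SD of log2 CPM between the 4 libraries of a group, by class of mean TPM, BaP eggs left and control eggs right in each pair. The bars are 0.70 for both groups under 1 TPM, 0.14 for both at 100 to 1000 TPM, and 0.25 for BaP against 0.20 for control eggs at 1000 TPM and over.

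Wide swings between libraries of one diet were common among scarce transcripts. A range of 4-fold or more between the 4 libraries of a group was seen for 4891 transcripts (16.9%) in BaP eggs and for 4838 (16.7%) in control eggs. The 2818 transcripts with such a range in both groups were 57.6% of the BaP set and 58.2% of the control set. Under 1 TPM the range was reached by 37.0% of transcripts in BaP eggs and 37.5% in control eggs. At 1 to 10 TPM it was reached by 19.3% in BaP eggs and 18.6% in control eggs. In the class of 10 to 100 TPM the range was reached by 390 transcripts (3.82%) in BaP eggs and 392 (3.84%) in control eggs. The spread differed between transcripts with whole and with other estimated counts. At 10 to 100 TPM the median SD was 0.15 in both groups for the 2454 transcripts whose counts were whole in all 8 libraries, against 0.18 in both groups for the other 7755. Intervals within 2-fold were found for 94.5% of the whole-count transcripts and for 86.7% of the others. The part of read division in this spread was not tested further.

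The 20 most abundant egg transcripts were 150 to 1551 bases long and together took 10.9% ± 1.77 of the TPM in BaP libraries, against 10.5% ± 0.518 in control libraries (SD, n = 4 each). The most abundant of all, of 168 bases, had 25391, 16856, 36574 and 21836 TPM in BaP replicates 1 to 4, against 24638, 26145, 18725 and 26545 TPM in control replicates 1 to 4. BaP replicate 3 was the highest and BaP replicate 2 the lowest of the 8 libraries. The transcript ranked second, also of 168 bases, had 11788, 6993, 17252 and 9062 TPM in the BaP libraries and 10412, 9192, 9551 and 9875 TPM in the control libraries. Here too replicates 3 and 2 of the BaP eggs were the extremes, while the control libraries lay close together. Fitted log2 fold changes of these 2 were 0.02 and 0.17, with intervals of -0.53 to 0.57 and -0.42 to 0.76. Of the 20, 16 had the larger coefficient of variation of TPM in BaP eggs, with medians of 21.2% in BaP and 14.6% in control eggs. The 20 share the same libraries and are not independent, and BaP replicate 2 was the lowest library at each of ranks 1 to 5. This count was not tried with a library left out. Only 7 of the 20 had a higher estimate in BaP eggs.

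A single one of these 20, ranked 17 and 665 bases long, had groups that did not overlap. Such groups made up 2.67% of all tested transcripts and 1.6% of the class of 1000 TPM and over. A single transcript is too few to set against these shares. It had 3786, 2393, 3182 and 2831 TPM in BaP replicates 1 to 4, against 2000, 2001, 2194 and 1896 TPM in control replicates 1 to 4. All 4 BaP libraries were above all 4 control libraries. The log2 fold change was 0.56 (95% interval 0.24 to 0.87), which did not pass (edgeR adjusted p = 1.00). The transcript ranked 9, of 1099 bases, had 3907, 4764, 6182 and 4088 TPM in the BaP libraries and 4296, 1632, 2920 and 2240 TPM in the control libraries. Control replicate 1 lay among the BaP values. Its log2 fold change of 0.72 had an interval of 0.01 to 1.43. The widest swing was that of rank 16, 586 bases long, with 6792, 510, 2884 and 3451 TPM in BaP replicates 1 to 4 and 1180, 2341, 2773 and 1178 TPM in control replicates 1 to 4. BaP eggs held both the highest and the lowest value.

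**Figure D4:**
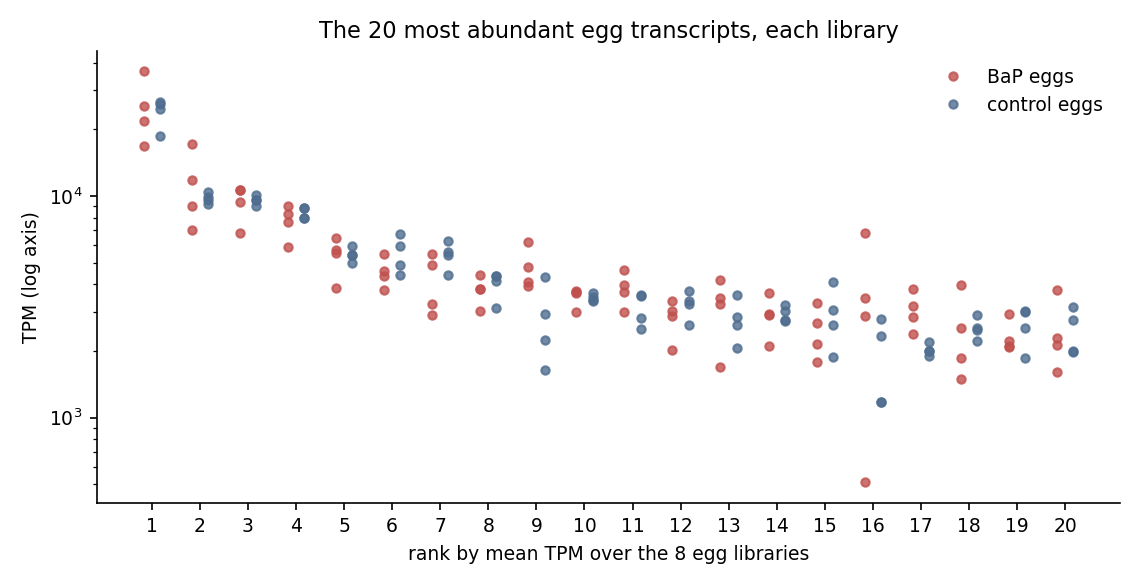
TPM, on a log axis, of the 20 transcripts with the highest mean TPM over the 8 egg libraries; each point is 1 library, BaP eggs left and control eggs right at each rank. The points of the 2 groups overlap at 19 ranks and are apart at rank 17.

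A set of 4 transcripts was followed in full, the 2 higher and the 2 lower ones of smallest p among those of at least 10 CPM whose groups did not overlap. That condition was met by 135 transcripts with BaP higher and 149 with BaP lower, of 12348 of that abundance. Together these were no larger a share than the 2.67% of all 29023 tested transcripts whose groups did not overlap. Since the 4 were taken for their separation in these libraries, their difference is a description. None of them passed the edgeR test across all transcripts. DESeq2 on the same transcripts called all 4, at a DESeq2 adjusted p of 1.61e-05 to 0.0117.

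ENSDART00000060005.6 (513 bases) had 82.5, 85.5, 129 and 84.3 CPM in BaP replicates 1 to 4, against 58.2, 58.1, 61.6 and 57.6 CPM in control replicates 1 to 4. BaP replicate 3 stood well above the rest, and the other 3 BaP libraries still lay above every control library. The log2 fold change was 0.69 ± 0.15 (SE; 95% interval 0.36 to 1.03; edgeR adjusted p = 1.00). ENSDART00000162004.2 (2531 bases) had 50.8, 45.1, 43.1 and 42.1 CPM in the BaP libraries and 34.9, 21.3, 28.7 and 23.04 CPM in the control libraries. The spread was larger among the control libraries. Its log2 fold change was 0.75 ± 0.16 (SE; 95% interval 0.38 to 1.11; edgeR adjusted p = 1.00).

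ENSDART00000169072.2 (8455 bases) had 132, 137, 133 and 124 CPM in BaP replicates 1 to 4, against 156, 164, 158 and 165 CPM in control replicates 1 to 4. Both groups were tight, and they were 19.01 CPM apart at their nearest values. The log2 fold change was -0.29 ± 0.05 (SE; 95% interval -0.40 to -0.17; edgeR adjusted p = 0.92). ENSDART00000133850.2 (1448 bases) had 39.98, 43.2, 43.2 and 45.5 CPM in the BaP libraries and 57.5, 53.8, 55.9 and 55.03 CPM in the control libraries. Its estimated counts were whole, as deposited, in all 8 libraries. The log2 fold change was -0.37 ± 0.07 (SE; 95% interval -0.52 to -0.22; edgeR adjusted p = 0.92). For both lower transcripts the interval keeps the change under 2-fold.

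**Figure D5:**
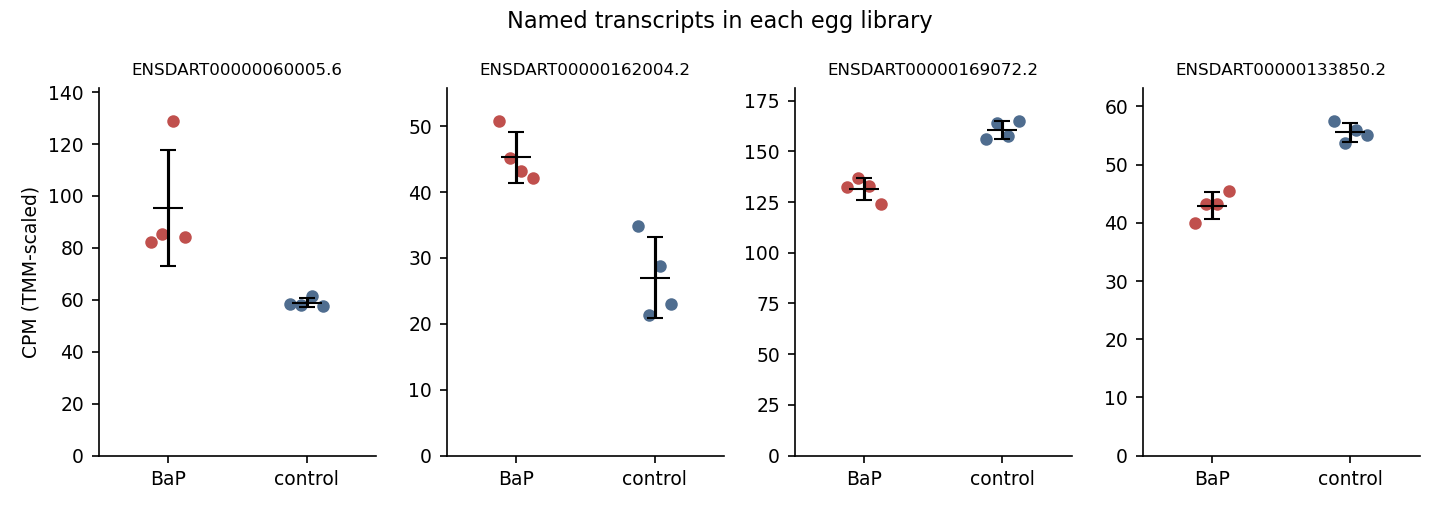
CPM of 4 transcripts in each egg library, BaP left and control right, as points with mean and SD (n = 4 each). The 2 on the left are higher and the 2 on the right lower in BaP eggs without overlap. None passed the adjusted test of edgeR, while DESeq2 on the same transcripts called all 4.

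The same 4 transcripts were read in 10 hpf (hours post fertilisation) embryos of BaP-fed mothers and control fathers, which the egg comparison did not use, against embryos of 2 control parents. The labels do not say whether egg and embryo libraries share tanks or mothers, so the embryos may not be independent of the eggs. ENSDART00000060005.6 had 195 ± 48.4 CPM in embryos of BaP-fed mothers and 185 ± 30.7 CPM in control embryos (SD, n = 4 each), a log2 fold change of 0.08 ± 0.20 (SE). ENSDART00000162004.2 was down to 1.15 ± 0.0611 CPM in embryos of BaP-fed mothers and 1.33 ± 0.107 CPM in control embryos (SD, n = 4 each), a log2 fold change of -0.22 ± 0.18 (SE). ENSDART00000169072.2 had 99.9 ± 7.84 CPM in embryos of BaP-fed mothers and 93.3 ± 11.4 CPM in control embryos (SD, n = 4 each), a log2 fold change of 0.10 ± 0.12 (SE). ENSDART00000133850.2 had 42.9 ± 2.82 CPM in embryos of BaP-fed mothers and 47.5 ± 5.45 CPM in control embryos (SD, n = 4 each), a log2 fold change of -0.15 ± 0.10 (SE). The estimates for ENSDART00000060005.6 and ENSDART00000133850.2 had the sign seen in eggs, and those for ENSDART00000162004.2 and ENSDART00000169072.2 the opposite one. ENSDART00000060005.6 had 147, 177, 262 and 195 CPM in replicates 1 to 4 of embryos of BaP-fed mothers. Control embryos had 191, 223, 150 and 174 CPM. Replicate 3 of the former was the highest, and whether the sign holds without it was not tested. The groups overlapped except for ENSDART00000162004.2, lower in embryos of BaP-fed mothers, and groups without overlap made up 3.68% of the 30894 transcripts tested there. None of the 4 passed (edgeR adjusted p = 1.00 each, 0% called).

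Egg transcripts were also split by their level in control embryos, called fate here. The split used the mean TPM of the 4 control embryo libraries against the mean of all 8 egg libraries. TPM does not tell stored RNA from RNA made by the embryo, so the split does not show how much stored RNA was lost. The 5650 tested transcripts at least 10-fold lower in control embryos made up 27.1% of egg TPM. They took 28.3%, 27.7%, 25.4% and 25.3% of the TPM in BaP replicates 1 to 4, against 27.6%, 27.5%, 27.2% and 28.02% in control replicates 1 to 4. BaP replicates 3 and 4 lay below all control libraries and replicate 1 above them. The median log2 fold change of these transcripts was -0.02, with 46.9% higher in BaP eggs. By abundance, 51.6% were higher under 1 TPM, 50.1% at 1 to 10 TPM and 43.2% at 10 to 100 TPM. At 100 to 1000 TPM 27.1% of 317 were higher (median -0.08), against 36.6% of all tested in that class. At 1000 TPM and over 22.0% of 59 were higher (median -0.08), against 27.2% of all tested there. Transcripts are not replicates, and this lean was not tested. The 22192 transcripts between the 10-fold limits had a median of -0.00 and 49.4% higher.

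Transcripts at least 10-fold higher in control embryos leaned the other way. These 1181, scarce in eggs at a median of 0.728 TPM, took 0.370%, 0.336%, 0.364% and 0.329% of the TPM in BaP replicates 1 to 4, against 0.351%, 0.311%, 0.363% and 0.317% in control replicates 1 to 4. The groups overlapped. Their median log2 fold change was 0.13, and 60.9% were higher in BaP eggs, against 49.4% of all tested. With a limit of 4-fold in place of 10-fold the median was 0.06 and 56.9% of 2967 transcripts were higher. The median was 0.12 for the 717 under 1 TPM and 0.14 for the 409 at 1 to 10 TPM, against 0.03 and 0.02 for all tested transcripts of these abundance classes. It was 0.00 for the 51 at 10 to 100 TPM, of which 26 were higher. By library, the median of the 1181 against the mean of all 8 libraries was 0.21, 0.08, 0.16 and -0.05 on the log2 scale in BaP replicates 1 to 4 and 0.10, -0.08, -0.03 and -0.06 in control replicates 1 to 4. BaP replicates 2 and 4 lay within the control range, and control replicates 1 and 3 within the BaP range. Intervals within 2-fold were found for 18.4% of this set, against 55.2% of all tested, and 4.32% had an unadjusted p under 0.05, against 3.6% of all.

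The count of calls depended on the tool. DESeq2 on the same transcripts called 49 (0.169%), 19 higher and 30 lower in BaP eggs, and limma voom called 0, with 1321 at an unadjusted p under 0.05. The 49 comprised 11 transcripts under 1 TPM (0.176% of those tested), 14 at 1 to 10 TPM (0.126%) and 18 at 10 to 100 TPM (0.176%). There were 6 at 100 to 1000 TPM (0.448%) and 0 at 1000 TPM and over (0%). Their median log2 change was 1.00 in size. Estimated counts were not all whole for 42 of them, and 8 had a library with no count. The 49 included each of the 4 named transcripts, at a DESeq2 adjusted p of 1.61e-05 to 0.0117. A fit of all 24 RNA libraries with edgeR, in which embryos share in the estimate of the spread, called 54 (0.152%), 36 higher and 18 lower, of which 28 were under 1 TPM and 11 were also among the 49.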

How the data were processed

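Per the submitters' processing notes, the tools were Salmon, FastQC and DESeq2 and the build was GRCz11, with no version stated. Estimated counts and TPM per transcript, beside its length, are the columns of the deposited tables, per the file headers. TPM values as deposited by the authors sum to 1000000 per library and were used for abundance classes, shares and fate. After rounding, the estimated counts of the 8 egg libraries were tested in R 4.3.3 by edgeR 4.0.16 with filterByExpr, TMM factors, robust glmQLFit and glmQLFTest. Standard errors and 95% intervals came from the fitted coefficient and the F statistic. Log2 CPM used a prior count of 2. Embryo values came from a fit of the 16 embryo libraries. Single values per library were tested by two-sided exact permutation with SciPy 1.17.1. DESeq2 1.42.0 and limma 3.58.1 (voom) were alternatives. Read division by estimate can move reads between isoforms, and counting floors cover counting error only, while the intervals carry the spread between libraries.

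The comparison, classes and tests were chosen with earlier results of these data known. Gene lists for receptor signalling, oxidative stress, DNA repair, DNA methylation and the maternal programme, and cell type markers, could not be applied, because the deposited identifiers did not match the gene tables. Named transcripts were the 2 higher and 2 lower ones of smallest p with at least 10 CPM and no overlap. No pair of libraries within a group agreed within sampling noise (chi-square per degree of freedom from 38.3 to 71.03).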

Additional observations from a re-analysis of the deposited data

Results flagged for a closer look

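A library far from the other 3 of its group was looked for in 40 groups of 4 values, of which chance flags about 1 in 20, and 3 were found. Transcripts of 10 to 100 TPM took 35.8% of the TPM in BaP replicate 4, against 33.1% to 33.4% in the other 3 BaP libraries. ENSDART00000060005.6 had 129 CPM in BaP replicate 3, against 82.5 to 85.5 CPM in the other BaP libraries. The same transcript had 61.6 CPM in control replicate 3, against 57.6 to 58.2 CPM in the other control libraries.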

How the results depend on the processing

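The 0 calls stayed 0 with RLE or upper-quartile factors, without a filter, with a stricter filter, in limma voom and over transcripts with whole counts. They became 49 (DESeq2, same transcripts), 109 (DESeq2, all rows, 0.306%), 54 (all 24 libraries) and 0 to 2 with 1 library left out: 1 without BaP replicate 4 and 2 without control replicate 3 or 4. With a replicate block the count was 0, with 1166 at an unadjusted p under 0.05 in edgeR. Same-numbered libraries deviated together at r = 0.0214 to 0.177. BaP replicates 3 and 4 were best with their own number, at r = 0.0471 and 0.177. BaP replicates 1 and 2 were best with control replicates 2 and 3. Whether the numbers mark a shared tank or batch cannot be told from these values.

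With 1 library left out, differences between BaP and control eggs ran, in percentage points, from -0.0380 to 1.12 (10 to 100 TPM, sign turned without BaP replicate 4), from -0.813 to 0.0907 (100 to 1000 TPM, without BaP replicate 3), from -1.004 to 0.247 (1000 TPM and over, without BaP replicate 4), from -0.930 to 0.323 (100 most abundant transcripts), from -0.196 to 0.251 (over 5000 bases) and from -0.158 to 0.146 (whole counts). None passed, but with 1 library left out none could have. The smallest exact permutation p that 3 against 4 libraries allow is 0.0571, above the threshold of 0.05. Only the size and sign of these differences can therefore be read. Intervals within 2-fold under 1 TPM numbered 617 and became 358 to 422. With classes by CPM they became 273 under 1 CPM, 2242 at 100 to 1000 CPM and 57 at 1000 CPM and over. Class medians moved by less than the spread between libraries, although that under 1 TPM turned sign without BaP replicate 1 or 3. Fate medians also moved by less than that spread, but were tried only with RLE factors and the 4-fold limit. They were not refitted with a library left out. The named transcripts kept their sign in all 16 alternatives each. They were chosen for groups without overlap in these libraries, so leaving a library out could not turn the sign, and this is no support. DESeq2 called all 4, and the fit of 24 libraries called ENSDART00000162004.2. The causes were not tested. Intervals were widest under 1 TPM, where the part of depth was not tested.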

Other observations

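A few transcripts were counted in every library of one diet and in none of the other. There were 42 with counts in all 4 BaP libraries and none in control eggs, and 38 of the opposite kind, out of 48420 counted in eggs. Most were scarce, with a median mean count of 4.03 in the BaP-only set and 5.63 in the control-only set. The highest mean count, 442, was that of a BaP-only transcript that did not pass the low-count filter and was not tested. Of the 42 and the 38, 3 and 5 passed that filter, on the counts of 1 diet alone. They were picked for having no count in the other diet, so the folds given here follow from that choice. These folds are a description and no evidence of a difference. The floor used for them covers counting error only, not the spread between libraries. The most counted of the 3, of 4291 bases, had estimated counts of 124, 229, 18.6 and 129 in BaP replicates 1 to 4, which is at least 144-fold higher than in control eggs if their summed count is set to a floor of 3. A transcript of 3312 bases had 28, 31, 15 and 30 counts in the BaP libraries, whole in each, at least 31.7-fold higher against the same floor. Among the 5, a transcript of 5369 bases had no count in BaP eggs and 121, 67.07, 150.05 and 54.7 in control replicates 1 to 4, at least 145-fold lower in BaP eggs against that floor. One of the 3 and one of the 5 had the same length of 6751 bases, and the files do not say whether they belong to 1 gene. Of the 8, only the transcript of 3312 bases had estimated counts that were all whole. Those of 4291 and 5369 bases, with the largest folds, did not. None of the 8 passed (edgeR adjusted p = 0.92 each), and whether reads were divided between isoforms was not tested.

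Fold changes in eggs were also read by transcript length. The median log2 fold change was -0.02 under 500 bases, -0.02 at 500 to 1000, 0.00 at 1000 to 2000, 0.00 at 2000 to 5000 and -0.01 over 5000 bases. The central 80% ran from -0.55 to 0.46 under 500 bases and from -0.44 to 0.48 over 5000 bases. Unadjusted p-values under 0.05 made up 2.5% of transcripts under 500 bases and 4.97% of those over 5000 bases, against 3.6% of all.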
